A study of Mus musculus with 8 samples.

Results

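Invading macrophages, recovered from mouse brain a week after focal ischemia, are described here on 4 of the 8 arrays of the series, those labelled by the submitters as invading macrophages. The C57BL/6 mice were bone marrow chimeras, animals whose blood-forming cells had been replaced by a graft. They had 30 min of MCAo (occlusion of the middle cerebral artery, which feeds much of the forebrain) followed by 7 days of reperfusion, and no further treatment. Cells positive for RFP, a red fluorescent protein, were sorted from the ischemic tissue of 4 animals, A to D, 1 sample for each, and the arrays are called by these letters. RNA was amplified by a global PCR and labelled with Cy3, so that a level below is that of an amplified product. The labels do not give the donor strain, the promoter that drives RFP, the age of the animals or the number of cells sorted. The other 4 arrays, of resident microglia, are not used here.

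Macrophages that enter the ischemic brain come largely from circulating monocytes, which leave the bone marrow through the chemokine receptor Ccr2. In the tissue they take up dead cells and myelin, degrade them in lysosomes, export the cholesterol, and secrete chemokines, proteases and growth factors. Macrophages at the brain's borders (meninges and perivascular spaces) and microglia are separate populations, with marker genes of their own.

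The arrays are one-colour Agilent arrays, and a level here is the log2 processed signal of a probe less the 75th percentile of its array, so that a difference of 1 is a doubling of signal. Between 45.7% and 56.8% of 55681 probes were well above background, the scanner's own call, and no probe was saturated. Of 22441 named genes, 10907 were well above background on all 4 arrays and 6831 on none. Array A was on a slide of its own and arrays B, C and D shared another. Across the 10907 genes, which are not replicates, arrays A, C and D correlated with each other at r = 0.958 to 0.971, whereas array B correlated with them at 0.852 to 0.883. Array B also had lower levels of macrophage genes and higher levels of endothelial genes, and results are therefore given for every array, or with and without array B. A value below -3.43, -5.00, -3.78 or -3.77 on arrays A, B, C or D lies under every signal well above background there and is only an upper bound. No groups are compared, so no difference below carries a p-value, and a comparison between arrays is a comparison of single animals.

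The brightest probes were not those of macrophage genes. Of the 20 brightest, 20 held a simple repeat, mostly a run of GT or CA, and of the 100 brightest, 95 held a simple repeat or a stretch that also occurs in probes of at least 5 chromosomes. That share was 40.2% of the 1000 brightest, 6.48% of the 22434 probes well above background on all 4 arrays, and 1.55% of the 19798 probes above it on none. Top of the list by this reading were Dennd4a, Sp110, Spag7 and Pak4, with means of 10.17, 10.09, 9.89 and 9.89. Their SDs between arrays were 0.347, 0.378, 0.343 and 0.326. Among the 300 brightest probes, the median SD was 0.273 for repeat probes and 0.355 for the other probes. The 30 bases of 4 such probes that hold the repeat are shown because these probes head the ranking, with the repeat in capitals, 5′ to 3′, at chr9:64659902-64659931 (plus strand), chr1:87473687-87473716 (minus), chr11:70477380-70477409 (minus) and chr7:31324171-31324200 (minus) of build mm9.
Dennd4a: TGTGTGTGTGTGTGTGTGTGtctgtgcaca
Sp110: TGTGTGTGTGTGTGTGTGTGtctgaacttt
Spag7: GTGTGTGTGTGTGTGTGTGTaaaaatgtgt
Proser3: CACACACACACACACACACAgagtaaaaat

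**Figure D1:**
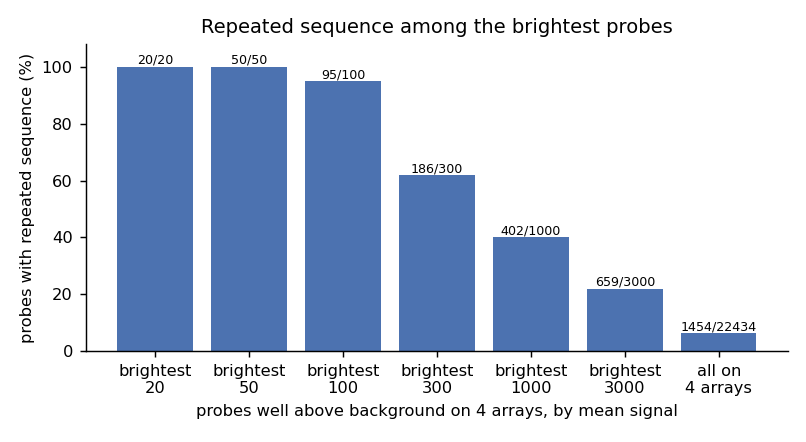
Share of probes with a simple repeat or a stretch shared by several chromosomes (vertical axis, percent), among the brightest probes by mean level over 4 arrays (horizontal axis). The share falls from 100% of the brightest 20 to 6.48% of all 22434 probes, and the numbers on the bars are probes.

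Some macrophage genes also read far higher on a probe with such a sequence than on their other probes. Itgam, the alpha chain of the integrin CD11b, has 3 probes, of which the probe at chr7:135261755-135261814 begins with a CA run and had a mean of 9.03. The other probes, at chr7:135212140-135212199 and chr7:135260275-135260334, had means of 4.84 and 5.14. The first 30 bases of the 3 probes, all on the plus strand of mm9, are shown in that order, the run in capitals, because the level of Itgam depends on which one is read.
Itgam 1: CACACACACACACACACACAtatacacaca
Itgam 2: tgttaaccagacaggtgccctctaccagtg
Itgam 3: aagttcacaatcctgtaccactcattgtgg
Siglech, a microglial lectin, likewise read 5.35 on a probe with a shared stretch and -1.22 on the better of its other probes. Of the 10907 genes, 646 were represented by such a probe. For the 192 that had another probe well above background on all arrays, the mean level fell by a median of 3.31 when it was left out. Values, ranks and counts of single genes and lists below are those with these probes left out, which keeps 10453 genes on all 4 arrays and 15141 on at least 1. A rank compares probes of different sequence and is a place in the order of probe signals, not of transcript numbers.

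The 4 genes chosen as markers of these cells, Ccr2, Fn1, Itgal and Runx3, were well above background on all 4 arrays, at ranks from 1437 to 2713 of 10453. Ccr2, the receptor of the chemokine Ccl2, had levels of 3.58, 3.4, 3.70 and 3.15 on arrays A to D and rank 1511 of 10453. These values lay within 0.55 of each other, and array B fell inside the range of the others. Fn1, the matrix glycoprotein fibronectin, had levels of 2.78, 4.51, 3.52 and 3.32. It was highest on array B, by 0.99 over the next array. Itgal, the alpha chain of the leukocyte integrin LFA-1, had levels of 2.63, 2.20, 3.0 and 2.94, and another probe read 2.62, 1.94, 3.05 and 2.82. Runx3, a runt-domain transcription factor, had levels of 2.74, 1.37, 3.22 and 2.42, lowest on array B. Its other probe read -1.50, -1.19, -1.16 and -1.57, far below, so that the rank of Runx3 depends on the probe. The first 30 bases of the probes that stand for these genes are shown because they were chosen as the markers of these cells, at chr9:124022948-124022977 (plus strand), chr1:71632146-71632175 (minus), chr7:134477160-134477189 (plus) and chr4:134731959-134731988 (plus) of mm9. Whether they lie in coding exons or UTRs was not analysed here.
Ccr2: gaagcagggacagaattcttgctttgaaaa
Fn1: ggtgattatttttataagcacatgccaacg
Itgal: acttgagagccctggctctgaccagcttca
Runx3: acctcttgtctccagccatgcccaggatca

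The list of general macrophage markers was bright, as 15 of 15 were well above background on all 4 arrays, at a median percentile of 97.9 among the 10453 genes. The list medians were 6.50, 4.59, 6.44 and 6.54 on arrays A to D, and array B was the lowest of the 4 for 15 of 15 members. Array B was the lowest for 49.5% of all 15141 genes, and for 36.4% to 54.9% of them under other scalings of the arrays. It was the highest for 27.2%, or 22.8% to 37.7%. Its median gene lay -0.25 from the mean of the other arrays, or -0.41 to 0.08 under the other scalings. Fcer1g, the signalling chain of Fc receptors, headed the list with 8.60, 6.84, 8.14 and 8.0. Csf1r, the receptor that keeps macrophages alive, had 6.87, 5.76, 6.69 and 6.81. Adgre1, which encodes F4/80, had 7.14, 4.98, 6.78 and 6.68, and Cd68, a lysosomal membrane glycoprotein of phagocytes, had 6.24, 2.98, 5.54 and 5.65. In sorted cells measured in bulk, fewer cells of a type and less RNA for each cell cannot be told apart. For Cd68 the distance between array B and the next lowest array was 2.56.

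Blood monocyte genes did not share 1 direction on array B, which was lowest for 13 and highest for 12 of 30 (49.5% and 27.2% of all genes), or lowest for 11 to 16 and highest for 12 to 17 under other scalings. Of 30 named members, 29 were above background on all 4 arrays, with medians of 2.69, 1.95, 3.11 and 2.81. S100a11, S100a4 and S100a6, small calcium-binding proteins abundant in monocytes, differed less between arrays, S100a11 at 6.37, 6.26, 6.55 and 6.09 and S100a4 at 6.02, 6.39, 6.74 and 5.97. Ms4a4c, a membrane protein of inflammatory monocytes, read 6.75, 5.26, 6.98 and 5.73 on a probe without repeats, and Emilin2, a matrix protein, 5.17, 3.22, 5.59 and 4.73. Thbs1, the matrix protein thrombospondin 1, had 4.60, 1.68, 4.56 and 3.74 and was lowest on array B. Vcan, the proteoglycan versican and a marker of circulating monocytes, was dim, with -1.77, -0.09, -1.38 and -1.89. Treml4 and Klf4, both used as monocyte genes, were highest on array B, Klf4 with 0.02, 2.67, -0.31 and 0.35. Ly6c2, whose name no probe carried, was not used here.

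Genes that define resting microglia were present in these sorted cells at levels that differed by gene. Cx3cr1, the fractalkine receptor, had 6.13, 5.03, 6.17 and 6.38 on its brightest probe, and means of 3.47 and 3.27 on its other probes. Tmem119, a microglial membrane protein, had 5.15, 3.67, 5.42 and 5.64. P2ry12, the purinergic receptor of microglial processes, had 4.13, 3.25, 4.01 and 4.43. Sall1, the transcription factor of microglial identity, was above background on 1 array of 4, and Sall3 and Crybb1 on none. Of 16 members, 11 were above background on all arrays, at a median percentile of 89.4. For members above background on all arrays, it was 97.9 for the general macrophage markers, 81.4 for the 4 marker genes and 74.1 for the blood monocyte genes.

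Without probes holding repeats, the brightest genes were mitochondrial, ribosomal and macrophage genes. ATP6, a mitochondrially encoded subunit of the ATP synthase, was first, with 9.50, 8.85, 8.85 and 8.97. Apoe, the apolipoprotein that carries cholesterol out of cells, had rank 3 overall and rank 1 over arrays A, C and D, with 9.68, 7.52, 8.94 and 9.21. Mpeg1, a pore-forming protein of phagocytes, had 9.04, 7.36, 8.57 and 8.55, and Ctsd, a lysosomal aspartic protease, 9.11, 6.86, 8.21 and 8.38. Both were lowest on array B. Gpnmb, a membrane glycoprotein of lipid-laden macrophages, had 9.12, 5.93, 8.28 and 8.35 and rank 18, or 8 over arrays A, C and D. Spp1, the secreted phosphoprotein osteopontin, had 8.86, 5.97, 7.85 and 8.02 and rank 29, or 14 without array B. Exosc2, an exosome subunit, and Milr1, a mast cell receptor, had ranks 4 and 5, but another Milr1 probe read 3.83 against a mean of 8.65. Ribosomal proteins such as Rps23, with 8.75, 7.83, 8.76 and 8.84, and the actin sequestering peptide Tmsb4x, with 8.55, 7.53, 8.11 and 8.03, were among the first 20.

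**Figure D2:**
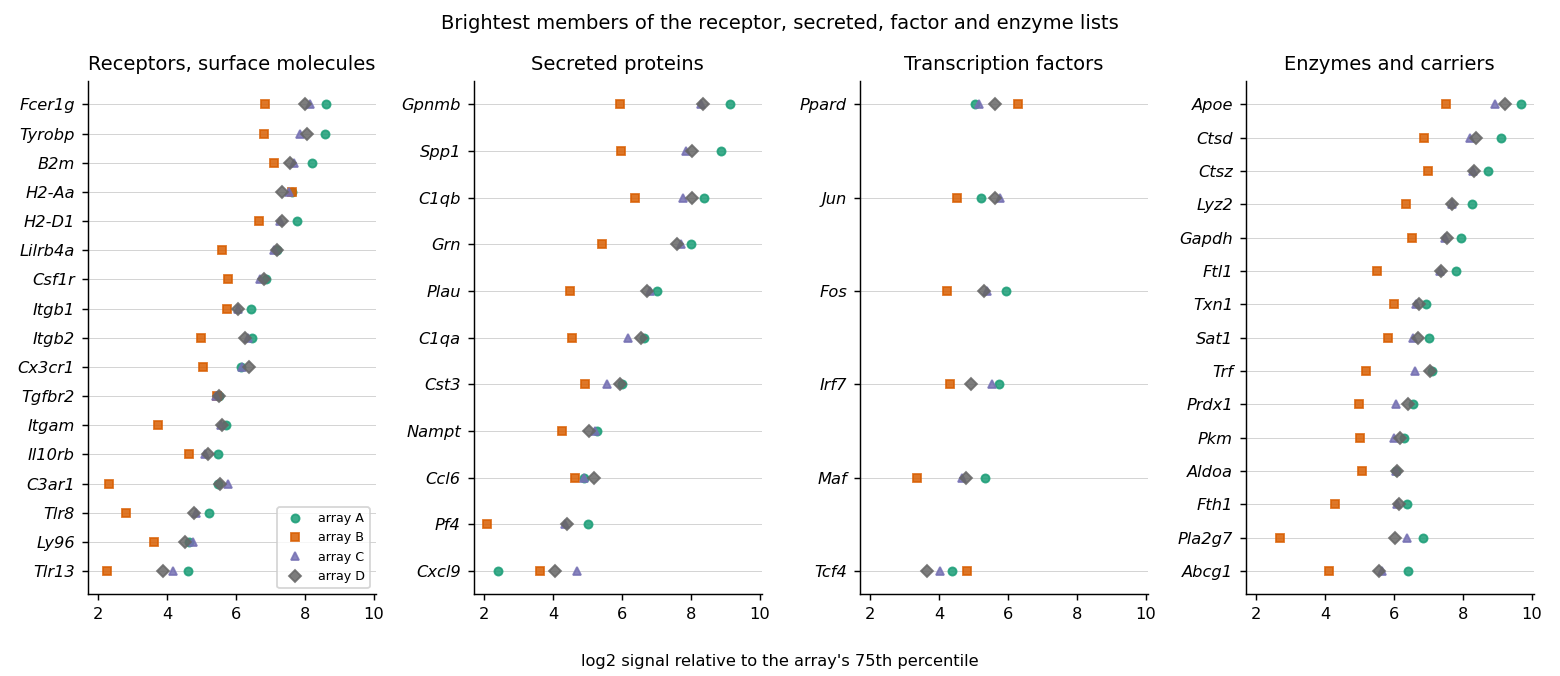
Level of members among the 3 brightest of each receptor, secreted protein, transcription factor and enzyme list on arrays A to D (horizontal axes, log2 signal less the 75th percentile of the array; 1 point for each array). Array B lies left of the other arrays for most genes, among them C3ar1 and Pla2g7, but not for H2-Aa, Ppard or Tcf4.

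The receptors listed here lay in the upper part of the ranking. The lists were chosen with earlier results of these data known, and a median percentile covers only members above background on all arrays. It describes the listed genes, not receptors in general, and the same holds for the secreted proteins, transcription factors and enzymes below. Of 168 named receptors and surface molecules, 138 were above background on all arrays with all probes kept, at a median percentile of 78.9. The value was 76.7 for the 134 left without repeat probes, and 78.5 for these over arrays A, C and D. Among 35 receptors for cytokines and growth factors, Csf1r was the brightest by its brightest probe. Its other probes had means of 5.06 and 4.57, and with the median of a gene's probes it lay at percentile 95.44, against 95.54 for Il10rb. Tgfbr2, which binds TGF-beta, followed with 5.51, 5.44, 5.42 and 5.51, the narrowest range of the list, but its other probe had a mean of 2.23. Il10rb, a shared chain of the interleukin 10 receptor family, had 5.47, 4.64, 5.11 and 5.19. Ifnar2, a chain of the type I interferon receptor, had 5.30, 4.77, 5.0 and 5.13, and Csf2ra, the receptor for GM-CSF, 4.02, 3.47, 4.93 and 4.73. Osmr, the oncostatin M receptor, varied most, with -3.53, 1.98, -3.01 and -5.82, and was above background on arrays B and C only. Lifr, for leukaemia inhibitory factor, had -0.61, 1.74, 2.01 and 2.18 and was lowest on array A.

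Of 23 chemoattractant receptors, 16 were above background on all arrays, and 3 on none, Ccr6, Cxcr5 and Ccr9, which are receptors of lymphocytes. Cx3cr1 was the brightest by its brightest probe. Its other probes had means of 3.47 and 3.27, below the mean of 4.78 for C3ar1, so that its place depends on the probe. C3ar1, the receptor for the complement fragment C3a, had 5.48, 2.30, 5.78 and 5.54. It was 3.18 lower on array B than on the next array, the other arrays lying within 0.30 of each other. Ptafr, for platelet-activating factor, was 2.03 lower there, with 4.68, 2.20, 4.96 and 4.23. S1pr1, a sphingosine phosphate receptor shared with endothelium, went the other way with 2.92, 4.46, 2.62 and 3.01. Cxcr2, the neutrophil receptor, had -0.12, 2.0, 1.56 and 1.05.

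Among 29 pattern recognition receptors, the brightest were Tlr8, Ly96 and Tlr13. Tlr8, Tlr13 and Tlr7, endosomal Toll-like receptors for RNA, had 5.2, 2.80, 4.84 and 4.78, 4.61, 2.26, 4.16 and 3.88, and 4.12, 2.24, 3.82 and 4.06. Array B was the lowest for each of these. Ly96, the co-receptor MD-2, had 4.65, 3.61, 4.74 and 4.52. With the median of a gene's probes, Ly96 lay at percentile 93.0, Tlr13 at 89.5 and Tlr8 at 85.1, so that their order depends on the probe. Tlr4, the receptor that Ly96 serves, had 1.02, -2.46, 0.42 and 1.03. Clec4d, a lectin of myeloid cells, had 4.40, 0.56, 3.97 and 4.0, and Nlrp3, the inflammasome sensor, 2.78, 2.24, 2.58 and 3.68. The list medians were 1.17, 0.19, 0.63 and 1.17.

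Phagocytic and scavenger receptors ranked highest of the receptor lists, at a median percentile of 89.1 for the 25 of 31 members above background on all arrays. Lilrb4a, an inhibitory immunoglobulin-like receptor, had 7.20, 5.59, 7.10 and 7.19, so that arrays A, C and D lay close together while array B lay 1.51 below. Fcgr3, a low-affinity receptor for IgG, had 7.20, 5.48, 6.81 and 6.87, Axl, a receptor for apoptotic cells, 5.53, 4.49, 5.55 and 5.58, and Msr1, the scavenger receptor of modified lipoproteins, 5.61, 2.58, 5.50 and 5.38. Trem2, the lipid-sensing receptor that signals through Tyrobp, had 5.2, 2.69, 4.85 and 4.65. Cd36, which takes up oxidized lipoproteins and fatty acids, varied most, with 4.20, -0.02, 2.83 and 2.09. Marco, a scavenger receptor of some tissue macrophages, was above background on no array, and Timd4 on 1. Array B was lowest for 24 of the 29 members above background on at least 1 array (22 to 24 under other scalings), against 49.5% of all genes.

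Integrins were bright and mostly lower on array B, while antigen presentation molecules varied less, with median SDs over arrays of 0.734 and 0.416. Array B was lowest for 18 of 26 integrins and adhesion molecules (16 to 18 under other scalings, 1 of which put its list median 0.03 above the mean of the others). Itgb1 and Itgb2, the common beta chains, had 6.43, 5.75, 6.05 and 6.05 and 6.47, 4.98, 6.34 and 6.27. Itgam, read from a probe without repeats, had 5.70, 3.75, 5.55 and 5.59. Itga1, a collagen-binding chain also found on endothelium, varied most, with -2.38, 2.33, -0.95 and -1.58, and was highest on array B. H2-Aa, the alpha chain of an MHC class II molecule, had 7.63, 7.64, 7.52 and 7.33, with array B level with array A, and Cd74, the invariant chain, 5.88, 6.03, 6.46 and 6.36. Neither was lowest on array B. The class I light chain B2m had 8.21, 7.10, 7.68 and 7.58. Cd86, a costimulatory ligand, was above background on array D alone, and Cd80 had 1.43, 0.94, 1.59 and 1.91. For the antigen presentation list array B was lowest for 11 of 22 members, near the background share of 49.5%. Under other scalings array B was lowest for 9 to 11 members of this list.

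Secreted proteins were spread over the whole range. Of 142 named members, 87 were above background on all arrays with all probes kept, at a median percentile of 65.9, and 28 were above it on none. Among chemokines, Ccl6 was brightest and steady, with 4.89, 4.64, 4.90 and 5.19. Pf4, a platelet chemokine also made by macrophages, had 5.0, 2.07, 4.34 and 4.40. Cxcl9, an interferon-gamma-induced ligand of Cxcr3, had 2.40, 3.62, 4.69 and 4.07 and was lowest on array A. The monocyte-attracting chemokines Ccl2 and Ccl7, ligands of Ccr2, had 2.80, -1.07, 3.65 and 3.27 and 3.05, -2.26, 3.69 and 2.54, with array B 3.86 and 4.80 below the next array. Ccl12 had 3.32, 2.36, 4.13 and 4.52. Xcl1, made by natural killer and T cells, varied most, with -2.80, 2.11, -4.45 and -5.97, and Cxcl12, made by vessel and stromal cells, was highest on array B, with -0.13, 5.68, 1.16 and -2.14. Of 28 chemokines, 5 were above background on no array, among them Cxcl5 and Cxcl13.

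Cytokines and growth factors lay near the middle of the ranking, at a median percentile of 55.4 for the 29 members above background on all arrays. The brightest were Spp1, Grn, the lysosomal growth factor progranulin, with 8.0, 5.42, 7.72 and 7.6, and Nampt, an enzyme of NAD salvage that is also secreted, with 5.28, 4.25, 5.23 and 5.03. Il18bp, which neutralizes interleukin 18, had 4.94, 1.69, 3.74 and 4.01, and Il1b, the inflammatory interleukin 1 beta, 1.55, 2.72, 2.57 and 3.03. Osm, the cytokine oncostatin M, had 2.12, -0.12, 1.88 and 2.20. Igf1, a trophic growth factor, varied, with 1.69, -1.29, 0.65 and 2.80, as did Hgf, hepatocyte growth factor, with 1.76, -1.21, 0.80 and 0.76. Vegfa, the main angiogenic factor, was above background by its brighter probe on arrays A, C and D, with 0.29, 0.39 and 1.24, and not on array B. Its other probe was dimmer, with -3.24, -5.00, -1.43 and -0.75 on arrays A to D, and was above background on 3 of them. Tnf had -0.55, -2.42, 0.41 and 0.63, below the array's 75th percentile on arrays A and B. Il6 and Il10 were above background on 1 and 2 arrays, and Ifng, Il4, Ifnb1, Il23a and Bdnf on none. Tgfb2, which varied most, had -0.90, 4.41, 0.66 and -5.65, in the order of the endothelial genes described below.

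Matrix proteins and proteases included some of the brightest genes. Plau, the urokinase-type plasminogen activator, had 7.03, 4.48, 6.80 and 6.72, array B lying 2.24 below the next array. Mmp14, a membrane-bound collagenase, had 5.90, 3.31, 5.88 and 5.84, Mmp8, a collagenase first known from neutrophils, 6.69, 3.80, 5.78 and 5.52, and Mmp12, the macrophage elastase, 4.66, 1.59, 2.73 and 4.06. Timp2, an inhibitor of these proteases, had 6.28, 3.25, 5.68 and 5.99. Lgals3, the galactose-binding lectin galectin 3, had 2.83, -0.14, 2.59 and 2.91. Adam8, a membrane protease of leukocytes, was above background on arrays A, C and D only. Sparc and Timp3, matrix genes of vessel walls, were highest on array B, Sparc with 0.28, 4.32, 0.86 and -2.80. Of the 38 members, 5, among them Timp1 and Lgals1, had only a probe with repeated sequence and are not given.

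Complement genes were bright for the recognition subunits. C1qb had 8.38, 6.36, 7.76 and 8.04, C1qa 6.63, 4.55, 6.18 and 6.55 and C1qc 5.11, 3.20, 4.75 and 5.24, the 3 chains of C1q. Cfb, factor B of the alternative pathway, had 5.55, 2.28, 5.69 and 4.29, and Cfp, properdin, 5.54, 3.65, 4.88 and 5.01. C3, the central component, had 1.70, 1.32, 2.88 and 1.06. Cd59a, which blocks the membrane attack complex, was highest on array B, with -0.27, 3.98, 1.07 and -0.92.

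The listed transcription factors were the dimmest of these classes. With all probes kept, 85 of 101 were above background on all arrays, at a median percentile of 46.9. That value was 51.6 when array B was left out. Among factors of myeloid lineage, Ppard, a nuclear receptor for fatty acids, had 5.05, 6.28, 5.16 and 5.61 and Maf, a factor of mature macrophages, 5.32, 3.36, 4.65 and 4.76. Spi1, which encodes PU.1, the master regulator of myeloid cells, had 3.60, 1.86, 3.64 and 3.48, and Irf8, its partner, 3.71, 2.06, 3.67 and 3.68. Tfec, a relative of Mitf found in macrophages, was above background on arrays A, C and D at 0.93 to 1.24 and was not on array B. Klf2 and Klf4, zinc finger factors of monocytes and endothelium, were highest on array B, Klf2 with 0.87, 4.85, 2.50 and 2.78. Gata2 varied most, with -2.66, 2.69, -1.68 and -6.01. Cebpb, an inflammatory factor, had 0.78, 0.34, 0.41 and 0.54, and Cebpe, Gfi1 and Myb, factors of granulocytes and progenitors, were above background on none.

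Among factors that respond to signals, the immediate early genes were brightest. Jun had 5.2, 4.51, 5.78 and 5.61 and Fos 5.94, 4.24, 5.4 and 5.29. Atf3, a stress-induced factor, had 5.59, 2.66, 5.49 and 4.86. Irf7, the amplifier of the interferon response, had 5.73, 4.30, 5.54 and 4.93, and Nfe2l2, the oxidative stress factor, 5.27, 4.08, 4.93 and 4.85. Epas1, the hypoxia-inducible factor HIF-2 alpha, stood out on array B, with 3.95, 7.55, 4.64 and 3.87, whereas Hif1a had 1.63, 0.04, 0.77 and 1.05. Fosl1 varied most, with -3.39, 1.65, -1.91 and -5.78. The subunits of NF-kappaB differed by gene: Nfkb1 had 2.31, 1.99, 2.99 and 2.90 and Rela -0.39, -0.40, -1.01 and -0.94. The list median moved little between arrays, from 0.62 to 0.85.

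The listed enzymes and carriers ranked highest of the 4 classes. With all probes kept, 136 of 156 were above background on all arrays, at a median percentile of 85.8. Of the 133 left without repeat probes, 58 were at or above the 90th percentile. Lysosomal proteins led, at a median percentile of 93.6. Their medians on arrays A to D were 5.12, 3.07, 4.76 and 4.91, and array B was lowest for 43 of 46 members above background on at least 1 array (41 to 43 under other scalings), against 49.5% of all genes. Ctsz, a cathepsin, had 8.73, 7.0, 8.29 and 8.33, Lyz2, the lysozyme of myeloid cells, 8.26, 6.35, 7.69 and 7.68, and Psap, the precursor of the saposins, 8.20, 6.07, 7.67 and 7.74. Ctsb, a cysteine cathepsin, had 8.34, 5.80, 7.59 and 7.65, and Lipa, the acid lipase that frees cholesterol, 5.27, 3.30, 4.79 and 4.87. Atp6v0d2, a proton pump subunit of osteoclasts and macrophages, had 3.81, -1.54, 0.73 and 2.67 and differed most between arrays among the members above background on all of them. Ctsk, the collagen-degrading cathepsin K, was above background on 2 arrays.

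As the lysosomal list was the brightest of the enzyme lists, its promoters were searched for CACGTG, the core of the element bound by Mitf and Tfeb, the regulators of lysosomal genes, and by other factors of that class. In the 250 bases before the start site (RefSeq, build GRCm38.p6), it was found on either strand in 12 of 42 promoters of 37 lysosomal genes (28.6%). The share was 6.02% of 32851 promoters of all genes, 0 of 11 promoters of 10 general macrophage genes and 0 of 23 promoters of 17 endothelial genes. GAGGAA, the core bound by PU.1 and related factors, was found in 35.7%, 23.3%, 63.6% and 39.1% of these. Their letters can share 1 base where they adjoin. Ctsd, described above, and Lamp1, a membrane protein of the lysosome with 3.68, 1.93, 2.94 and 3.28, hold CACGTG 2 and 4 times. Their windows, chr7:142387828-142388077 (minus strand) and chr8:13158911-13159160 (plus), are shown as examples of how the motif is spaced, with CACGTG in capitals. A match is a run of letters, not a measured binding site, and its part in the differences between arrays was not tested.
Ctsd: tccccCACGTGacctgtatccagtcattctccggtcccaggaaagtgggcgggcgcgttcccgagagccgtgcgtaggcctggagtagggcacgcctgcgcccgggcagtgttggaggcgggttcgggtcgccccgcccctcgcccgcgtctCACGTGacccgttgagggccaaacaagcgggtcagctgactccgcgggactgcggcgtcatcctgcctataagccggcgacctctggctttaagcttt
Lamp1: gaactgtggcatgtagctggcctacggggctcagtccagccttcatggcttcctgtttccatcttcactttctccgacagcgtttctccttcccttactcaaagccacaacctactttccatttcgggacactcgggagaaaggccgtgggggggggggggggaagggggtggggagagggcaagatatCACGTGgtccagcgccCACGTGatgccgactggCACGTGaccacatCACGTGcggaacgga

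The lipid list held the brightest of all enzymes and carriers, Apoe. It was followed by Pla2g7, the phospholipase that hydrolyses platelet-activating factor, with 6.85, 2.68, 6.38 and 6.03. Abcg1 and Abca1, the cholesterol exporters, had 6.39, 4.12, 5.63 and 5.56 and 6.03, 3.42, 4.98 and 5.41. Plin2, which coats lipid droplets, had 6.53, 2.78, 5.64 and 5.07, and Fabp5 and Fabp4, fatty acid carriers, had 6.50, 1.90, 5.73 and 5.86 and 5.32, 2.18, 4.62 and 4.47. Array B was 2 or more below the next array for 6 of 36 members, among them Pla2g7, Plin2, Fabp5 and Fabp4, against 3.08% of all genes. Alox5ap and Hpgds, which serve leukotriene and prostaglandin D synthesis, had 5.77, 4.44, 5.72 and 5.65 and 6.09, 3.46, 5.46 and 5.55, while Ptgs2, the inducible cyclooxygenase, had -1.29, 0.12, -0.96 and -0.42. Fasn, the fatty acid synthase, was above background on no array.

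Arg1, the arginase that depletes arginine and is used as a marker of reparative macrophages, differed more between animals than the other genes of its list, with 1.52, -1.92, 3.66 and 3.90. It was highest on arrays C and D, lower on A, and lowest on B. Nos2, which competes for arginine, had -2.13, -2.12, -3.11 and -2.76. Hmox1, which degrades haem, ran from 2.08 on array B to 6.02 on array D, the highest of the 4. The phagocyte oxidase was measured through Cybb, its catalytic chain, with 5.60, 4.62, 5.45 and 5.57, and Cyba and Ncf1, its partners, with 3.64, 1.74, 3.91 and 3.66 and 4.47, 2.44, 4.26 and 4.36. Txn1 and Prdx1, antioxidant proteins, had 6.93, 6.01, 6.64 and 6.72 and 6.54, 4.97, 6.06 and 6.40. Of 31 members, 30 were above background on all arrays, and 1, Ido1, on none.

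Glycolytic enzymes were bright for Gapdh, 7.95, 6.53, 7.46 and 7.54, Pkm, 6.29, 5.02, 6.0 and 6.16, and Aldoa, 6.05, 5.08, 6.05 and 6.09. Slc2a1, the glucose transporter of brain endothelium, did not follow them, with 0.56, 5.42, 1.83 and 0.22, highest on array B. Iron genes were split in the same manner. The ferritin chains Ftl1 and Fth1 had 7.79, 5.52, 7.33 and 7.38 and 6.38, 4.30, 6.07 and 6.16, lowest on array B, whereas Tfrc, the transferrin receptor, had 2.02, 5.4, 1.83 and 1.70 and Slc40a1, the iron exporter ferroportin, -3.26, 2.62, -2.48 and -0.74, both highest there.

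Programs outside these classes were read from gene lists. Of 27 cell cycle genes, 22 were above background on all arrays. Mki67, the proliferation antigen Ki-67, had 4.78, 3.55, 5.28 and 5.95, Birc5, the mitotic regulator survivin, 3.14, 1.82, 3.65 and 3.94, and Top2a, the topoisomerase of dividing cells, 2.47, 0.47, 2.41 and 2.80. Array D was the highest and array B the lowest in the list medians, 0.29, -0.57, 0.76 and 1.48, and array B was lowest for 22 of 25 members (21 to 22 under other scalings), against 49.5% of all genes. Interferon-stimulated genes were present on all arrays, with list medians of 2.95, 3.24, 3.16 and 2.31. Although its median was the highest, array B was lowest for 13 of 25 members and highest for 3 (49.5% and 27.2% of all genes). Under other scalings it was lowest for 9 to 16 and highest for 3 to 10. Ifitm3, an antiviral membrane protein, had 6.11, 5.94, 6.19 and 5.59, and Isg15, a ubiquitin-like modifier, 4.53, 4.68, 4.78 and 4.26. Stress genes that can be induced during cell isolation were also measured, with list medians of 2.24, 1.97, 2.69 and 3.04. Hspa8 had 7.76, 6.89, 7.56 and 7.75 and Hspa1a, the inducible heat shock protein, 0.77, 3.02, 3.13 and 3.67, lowest on array A. Their part in the other levels was not tested. Hypoxia genes had medians of 0.49, 1.12, 0.77 and 0.40, and housekeeping genes 4.49, 3.50, 4.56 and 4.70. Actb, the cytoskeletal actin, had 8.44, 7.06, 7.86 and 7.85, so that genes used as references were lower on array B as well.

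**Figure D3:**
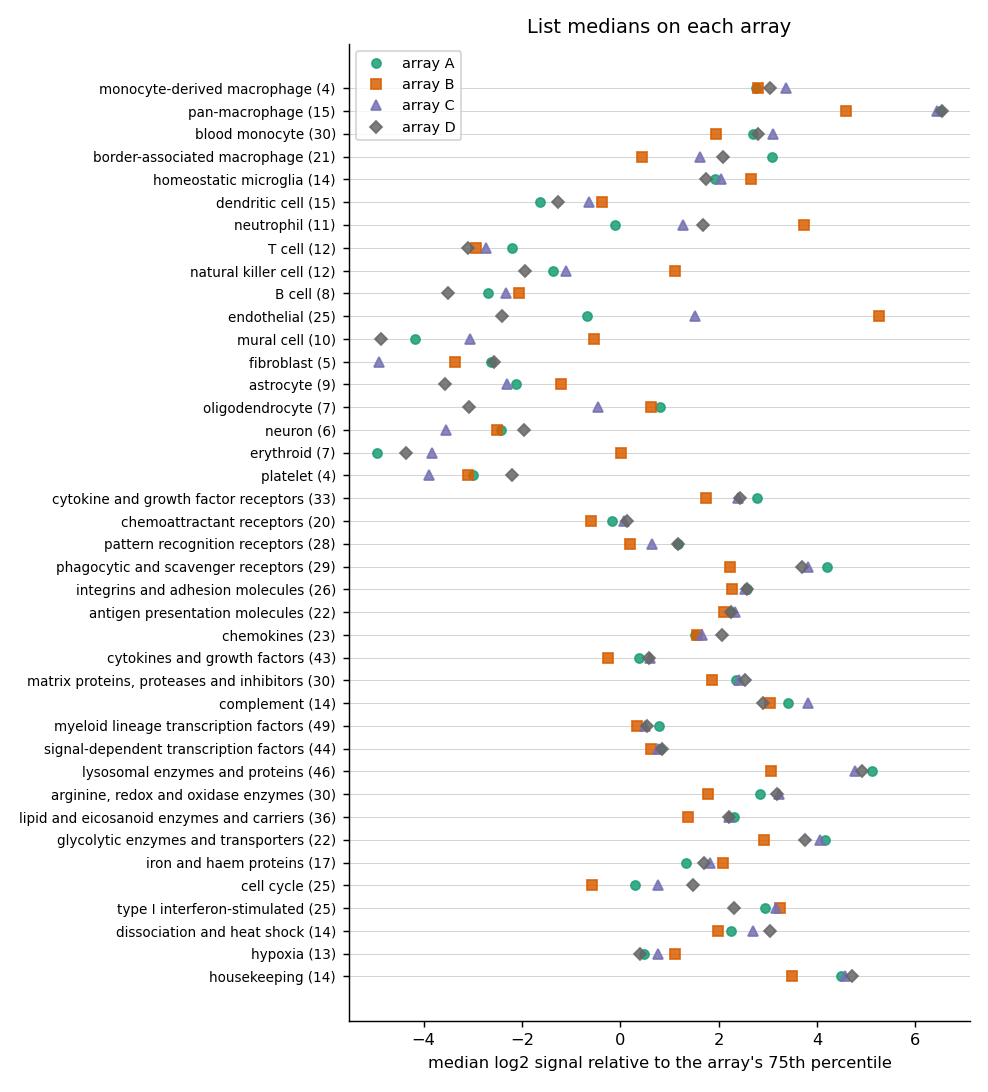
Median level of each gene list on arrays A to D (horizontal axis, log2 signal less the 75th percentile of the array), for members well above background on at least 1 array, whose number is in brackets. Array B lies below the other arrays for the general macrophage, border macrophage and lysosomal lists and far above them for the endothelial list, at 5.26.

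Of the 4 arrays, array B differed most from the others. With all probes kept, 1658 of 15610 genes stood apart, lying 2 or more log2 units beyond the nearest other array on 1 array, signals below an array's lowest well-above-background signal being raised to it. The count was 516 when array B was left out, and 644 after normexp background correction. With repeat probes left out, array B was the highest for 908 genes (6.00% of 15141) and the lowest for 466 (3.08%). Arrays A, C and D were highest for 119, 36 and 64 genes, and lowest for 12, 11 and 100. The level to which signals were raised was -5.00 on array B and -3.43, -3.78 and -3.77 on arrays A, C and D. A dim gene could therefore fall further on array B, and the counts of lowest genes are not on equal terms. The genes highest on array B were headed by Hbb-bs, a beta globin, with -3.31, 3.11, -3.82 and -4.36, Ccn2, a matrix growth factor, with -5.26, 2.72, -5.99 and -5.94, and Epha4, an ephrin receptor, with -2.97, 3.56, -2.48 and -3.56. Those lowest were headed by Tfec, Scgb1a1, a secretoglobin, and Tmem171, none of them above background on array B.

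**Figure D4:**
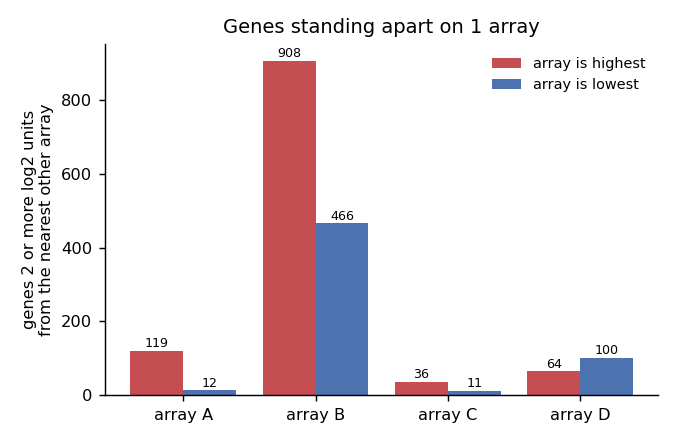
Number of genes (vertical axis) that were 2 or more log2 units above (red) or below (blue) the nearest other array, for each of arrays A to D. Array B has 908 and 466 such genes, and no other array has more than 119.

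Of the gene lists, the endothelial one differed most between arrays in its median. All 25 members of the list were highest on array B (27.2% of all genes were), 24 of them by 2 or more log2 units, and 20 had the order B, C, A, D from high to low, which 5.74% of all genes did. Well above background were 18, 25, 23 and 17 of them on arrays A to D. The medians were -0.67, 5.26, 1.53 and -2.42. As a summed linear signal, in multiples of the array's 75th percentile, the list came to 135, 1523, 216 and 35.1. Slco1a4 and Slco1c1, transporters of the blood-brain barrier, had 1.49, 7.19, 3.18 and -2.42 and 0.94, 6.81, 2.85 and -2.79, so that arrays B and D differed by 9.61 and 9.59. Cldn5, the tight junction protein of brain vessels, had 1.60, 7.09, 3.33 and -1.34. Ptprb, an endothelial phosphatase, had 1.5, 6.62, 2.79 and -2.21, and Pecam1, an adhesion molecule also found on leukocytes, 1.41, 6.24, 3.07 and 1.95. Abcb1a, the drug exporter of the barrier, had 3.30, 7.70, 4.32 and 1.96. Flt1, a receptor for VEGF, had 3.26, 6.53, 3.60 and 2.37, and Ly6c1, which is also a monocyte gene, had 6.52, 7.84, 6.83 and 3.99. On array D 8 of the 25 lay 2 or more below the nearest array, against 0.660% of all genes, and 8, among them Egfl7, Cdh5 and Tie1, were not well above background on that array.

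Border macrophage genes ran in another order. The medians were 3.07, 0.43, 1.63 and 2.09 on arrays A to D, and array B was lowest for 15 of 21 members above background on at least 1 array (49.5% of all genes) and by 2 or more for 7 (3.08%). The summed signals were 392, 83.9, 289 and 288. The fall on array B was not particular to this list. Array B minus the mean of the other arrays was -1.83 for its median. The difference was -1.90 for general macrophage markers, -1.86 for lysosomal proteins and -1.68 for phagocytic and scavenger receptors. F13a1, a transglutaminase, had 6.35, 4.08, 5.71 and 5.72, and Siglec1, the sialic acid receptor CD169, 6.41, 3.51, 5.89 and 5.86. Folr2, a folate receptor, had 4.15, -0.22, 2.29 and 3.0, and Cbr2, a carbonyl reductase, 0.63, -6.21, -2.75 and -0.28. Both were highest on array A and lowest on B. Stab1, a scavenger receptor, had 4.28, 2.19, 3.81 and 4.23, and Ms4a7, a membrane protein of border macrophages, 4.45, 1.58, 3.69 and 3.69. Mrc1, the mannose receptor, went another way, with 1.30, 1.43, 1.63 and 3.17, highest on array D. Ccl8, a monocyte attractant, had 1.52, -2.04, 0.98 and 2.06. The markers most particular to border macrophages by common use were dim: Cd163, a haemoglobin scavenger receptor, was above background on 2 arrays, and Lyve1, a hyaluronan receptor, on array D alone, at -3.28.

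**Figure D5:**
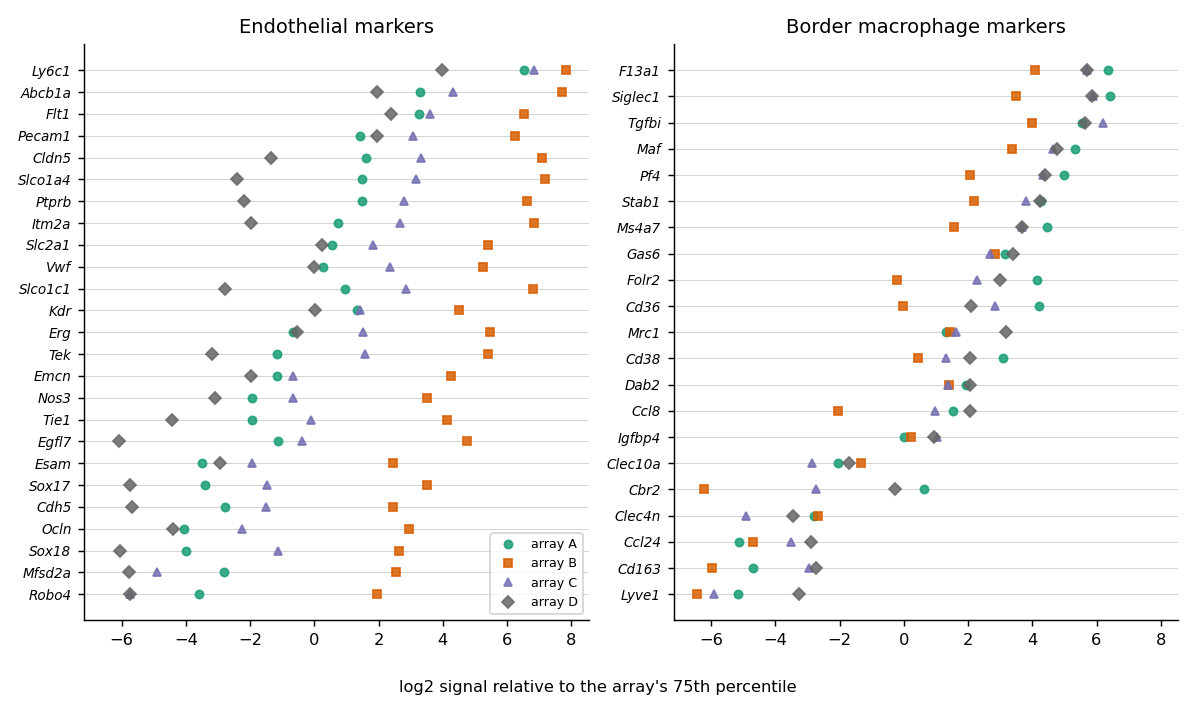
Level of each endothelial (left) and border macrophage (right) marker well above background on at least 1 array, on arrays A to D (horizontal axes, log2 signal less the 75th percentile of the array). All 25 endothelial genes are highest on array B, while 15 of 21 border genes are lowest there.

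Markers of other cells moved with array B too. Of 12 natural killer cell genes, 12 were highest on array B (27.2% of all genes were; 11 to 12 under other scalings) and 5 of them by 2 or more log2 units (6.00% of all genes), with list medians of -1.37, 1.12, -1.10 and -1.93. Gzma, a granzyme, had -2.86, 1.74, -3.47 and -3.12. Neutrophil genes had medians of -0.12, 3.73, 1.27 and 1.67, with S100a9, a calprotectin subunit, at 1.53, 5.27, 3.47 and 4.03 and Ngp, a granule protein, at -5.12, 3.73, 0.64 and 2.20. Array B was highest for 10 of the 11 neutrophil genes above background on at least 1 array (27.2% of all genes). It was highest for 9 to 10 under other scalings, and by 2 or more log2 units for 1. The summed signals of the neutrophil list were 123, 146, 95.9 and 84.9. These sums include the bright Mmp8, which went the other way, with 6.69, 3.80, 5.78 and 5.52. S100a9 and Ngp were lowest on array A, while Mpo and Elane, of immature granules, were above background on none. Haemoglobin genes were highest on array B, Hba-a1 with 1.59, 7.64, 2.86 and 1.16. Of the 7 erythroid genes above background on at least 1 array, 6 were highest on array B by 2 or more log2 units (6.00% of all genes). Alas2 was above background on arrays B and D, and array B was 2.13 over the next array. The erythroid membrane gene Slc4a1 was above background on none. Mural cell genes, of pericytes and smooth muscle, had medians of -4.17, -0.54, -3.06 and -4.87, with Rgs5 and Vtn at 2.16 and 2.21 on array B. Their summed signals were 3.27, 15.03, 3.73 and 2.70. The lists of dendritic cells (-1.64, -0.37, -0.65 and -1.28), T cells (-2.21, -2.95, -2.73 and -3.09), B cells (-2.69, -2.06, -2.33 and -3.50) and platelets (-3.01, -3.11, -3.89 and -2.19) had no median above 0.81 on any array. Those of astrocytes (-2.13, -1.21, -2.30 and -3.57), oligodendrocytes (0.81, 0.62, -0.46 and -3.08), neurons (-2.43, -2.52, -3.55 and -1.97) and fibroblasts (-2.64, -3.36, -4.90 and -2.56) had none either. Mbp, of myelin, was the brightest brain gene by mean, at 2.35, 1.89, 2.05 and 2.02, and Bst2, an interferon-induced protein of the dendritic cell list, had 6.86, 5.27, 6.58 and 6.61. Cd8b1, Ms4a1, Ppbp, Sox9, Mag and Slc17a7, defining genes of T cells, B cells, platelets, astrocytes, oligodendrocytes and neurons, were above background on no array. The part that RNA of such cells had in the lower macrophage genes of array B was not tested.

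Arrays A, C and D had differences of their own, in fewer genes. Array D had Peg12, Stam2 and Ogfod3 at 7.64, 7.64 and 7.51, with no level above -1.45 on the other arrays. Another Stam2 probe was at -5.72 on array D, and another Peg12 probe at -2.56. The genes lowest on array D were headed by Angpt2, a vessel-remodelling ligand, with 1.33, 3.44, 1.20 and -4.09, and by Ablim1 and Septin4, which had the order B, C, A, D. Array A was highest for 9130019O22Rik, Efcab1 and Olfr700, each at 1.30 to 2.30 with no level above -2.72 on the other arrays. The brightest other probe of 9130019O22Rik was at -3.19 on array A, and that of Efcab1 at -4.84. Array A was lowest for Stfa2l1, a stefin of neutrophils, Ngp and Rtl8c. On array C the widest gaps were those of Olfr947-ps1, Zfp719 and Fgfr4 above and of Mmp11, Rfx2 and 9130020K20Rik below. Another Fgfr4 probe was at -5.85 on array C.

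Spread between arrays holds the sort, amplification, labelling and slide as well as the animal. For 205 probes printed at least 5 times on each array, the median SD between spots of 1 array was 0.0762, and that between arrays was 0.483. Among the 51 brightest of these probes the values were 0.0541 and 0.440, and among the 52 dimmest 0.142 and 0.621. Over the 10907 genes the median SD between arrays was 0.477, or 0.297 without array B, and 1341 genes, or 418, had an SD over 1. The 10 genes with the largest SD were Slco1c1, Slco1a4, Ablim1, Tek, Itm2a, Ptprb, Tm4sf1, Podxl, Cldn5 and Cxcl12, with SDs of 3.32 to 3.99. All had the order B, C, A, D, and 6 of them are on the endothelial list. The 10 with the smallest, 0.0116 to 0.0358, were Commd3, Ndfip1, Sgf29, Dync1h1, Bnip2, Ifi47, E030030I06Rik, Mycbp2, Atp5g1 and 5830417I10Rik. Ndfip1, a membrane adaptor of ubiquitin ligases, had 3.51, 3.50, 3.51 and 3.53, and Dync1h1, the heavy chain of dynein, 4.51, 4.46, 4.5 and 4.49. Among the 1000 brightest genes, Abcb1a, Fabp5 and Pla2g7 varied most, with SDs of 2.45, 2.09 and 1.90. Probes of 1 gene also differed, as over 2939 genes with several probes above background on all arrays the brightest and the dimmest differed by a median of 1.49.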

How the data were processed

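Each of the 4 arrays is a scan of 62976 spots, read with Agilent Feature Extraction 10.7.3.1, per the file headers. The authors deposited processed signal intensity for each spot, which the scanner software had corrected for background, and a log2 value table of the same arrays. In that table the scale and centring are not stated, its column medians were 4.60 to 4.61, and it served as an alternative. Probe positions are those of build mm9, per the file headers.

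Control spots and outlier flags were left out, spots of 1 probe were averaged, and the log2 signal was taken less the array's 75th percentile. A gene was represented by its brightest probe among those well above background on the most arrays. Of 55681 probes, 27509 were named through an accession in RefSeq, 3549 by symbol, 404 by an older symbol, and 24219 had no name. Probes with a simple repeat of at least 12 bases (units up to 4 bases), or a 14-base stretch found in probes of at least 5 chromosomes, were left out of the values of single genes and lists. That choice, like the members and lists, was made with earlier results of these data known.

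Named by rule were the 4 markers, the 20 top genes, the 3 brightest members and the widest range of each list, the most and least variable genes and those standing apart. Other list members were named for their role after their values were seen. The spread measures 4 animals, so precision is limited by that number, and slide and animal cannot be told apart for array A. Alternatives were other scalings, background correction (limma 3.58.1 in R 4.3.3), detection rules, probes and leaving out each array. Python 3.11.15 with pandas 2.3.3 was used, and the count of genes standing apart was tested on simulated data. That test did not cover the raising of low signals described above. Some list members are counted in their lists but not reported here by name.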

Additional observations from a re-analysis of the deposited data

Results flagged for a closer look

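In 94 values checked for an array far from the other 3, 12 were found, all of them low on array B. The check used the size of the gap within the range of the 4 arrays, and chance gives such a gap in about 1 of 20 groups. The 94 values include list medians and members of the same lists, on the same arrays. They are not independent, so the count of 12 cannot be set against that rate. Array B was the lowest for 49.5% of all genes, and the share of all genes that this check would flag is not given here. For lists, array B had a median of 4.59 for general macrophage markers, 2.26 for integrins and adhesion molecules, and 1.37 for lipid and eicosanoid enzymes and carriers. For single genes, Aldoa read 5.08, C3ar1 2.30, Csf1r 5.76, Fth1 4.30, Grn 5.42, Itgam 3.75, Itgb2 4.98, Lilrb4a 5.59 and Plau 4.48 on array B.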

How the results depend on the processing

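No paired analysis was possible because only 1 group was described and no comparison was tested. The count of 1658 genes standing apart was 644 after normexp background correction, 642 over genes on all 4 arrays and 5383 with a gap of 1 log2 unit, and 516 to 2042 when each array was left out in turn, the lowest value being without array B. The cause of the normexp value was not tested. The median percentile of transcription factors, 46.9, was 48.5 to 51.6 with an array left out. Those of receptors and enzymes were 78.0 to 79.1 and 85.3 to 87.8. Array B minus the mean of the others was 4.83 to 6.80 for endothelial and -2.15 to -1.32 for border macrophage medians with 1 other array left out, and 5.12 to 6.2 and -2.0 to -1.50 under the other settings. No value exists for these, or for the correlation of array B, without array B. Genes on all arrays numbered 11020 to 11593 with an array left out. The median correlation of array B with the others was 0.863 to 0.874. The mean spot SD was 0.0764 to 0.0799. Under at least 1 other scaling, array B minus the mean of the others changed sign for the median of all genes (-0.25, up to 0.08) and of the lists of antigen presentation (-0.16, up to 0.17), complement (-0.32, up to 0.09), chemokines (-0.18, up to 0.15), signal-dependent factors (-0.18, up to 0.15), myeloid lineage factors (-0.27, up to 0.06), integrins (-0.30, up to 0.03), the 4 markers (-0.26, up to 0.09), T cells (-0.27, up to 0.06) and platelets (-0.08, up to 0.25). It also did for neurons (0.13, down to -0.15) and fibroblasts (-0.24 to 0.33). Of 74 percentiles of single genes, 49 moved by more than the SD between arrays when the median of a gene's probes was taken, among them Runx3 from 71.9 to 46.4 and Cxcl9 from 85.5 to 69.3, and 41 of 63 did with repeat probes left out. Dim genes are limited by background, and a signal below it is only a bound.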
